A study of Bos taurus with 68 samples.

Results

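The chains of complement component C1q (C1QA, C1QB and C1QC) were followed in the liver of cows around calving. Their members are all cDNA clones whose annotated gene, after its symbol was updated through the gene identifier, is C1QA, C1QB or C1QC. There were 5 such clones among 5693 listed clones: 1 for C1QA, 2 for C1QB and 2 for C1QC. All 5 were measured in every cow-day of the main table, so no member was lost to the filter on missing values.

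Liver total RNA of 5 cows (6934, 6983, 7079, 7186 and 7188) was hybridised to 2-colour cDNA arrays on days -65, -30, -14, 1, 14, 28 and 49 relative to calving. The labels name no treatment, breed or age, and the same animals were sampled repeatedly. Every array carried liver cDNA in one dye and cDNA of a reference standard RNA, whose source is not given in the sources used here, in the other dye. The dyes were exchanged on a second array for each cow-day, so the 68 arrays make up 34 cow-days, and cow 6983 has no day 49. The comparisons use the larger of 2 deposited tables, with 60 arrays and 30 cow-days. It holds all 5 cows for days -65, -30, 1 and 28, 3 of them (6983, 7186 and 7188) for day -14 and 3 (6983, 7079 and 7186) for day 14, and 4 for day 49. Days -65, -30 and -14 are called prepartum below, and days 14, 28 and 49 lactation.

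Each value below is a log2 ratio of liver over the reference, averaged over the exchanged pair, and a level always means this ratio. The labels do not say which dye was the numerator, so this direction is only likely. Were Cy3 the numerator, all signs would turn, those of differences between days included.

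C1q is the recognition molecule of the classical complement pathway. It is built from A, B and C chains, each with a collagen-like stalk and a globular head. The heads bind antibody in immune complexes, and also pentraxins and dying cells. The stalks carry the proteases C1r and C1s, which then cleave C4 and C2. Most liver complement proteins come from hepatocytes, whereas C1q is made mainly by macrophages, in liver the Kupffer cells. In bulk liver, fewer cells of a type and less RNA per cell cannot be told apart.

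On an array of the larger table, between 14607 and 16288 of 16416 rows were measured. The exchanged arrays of a pair correlated below 0 before their signs were turned, as exchanged dyes should, in 25 of 30 cow-days. The 5 cow-days that did not were cow 6934 day 49, cow 6983 day 14, cow 7079 day 1, cow 7186 day 14 and cow 7188 day 49. They are called the non-opposing cow-days below. Of these 5, 4 are lactation days. Over the 30 pairs r ran from -0.53 to 0.18, against -0.67 to -0.45 in the smaller deposited table. The cut at 0 parts near-equal values. Cow 6983 day 14 was at 0.032, whereas cow 6934 day 28 was at -0.0026, cow 7079 day 49 at -0.0048 and cow 7186 day -14 at -0.020. Leaving out the non-opposing cow-days therefore does not leave only well-opposed pairs. Of the 6 hepatocyte markers on the array, 4 lay far above the reference: ceruloplasmin (CP) lay at a mean of 4.94 over the cow-days, the bile acid transporter SLC10A1 at 3.80, transferrin (TF) at 3.79 and the receptor subunit ASGR2 at 2.50, whereas the urea cycle enzyme ASS1 lay at 0.63 and APOA1 at 0.06.

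All 150 C1q values, 5 clones in 30 cow-days, lay above 0. They ran from 0.39 for C1QA in cow 6934 on day -30 to 5.61 for C1QC clone 1 in cow 7186 on the same day. The mean over the cow-days was 2.03 for C1QA, 3.03 and 3.14 for the C1QB clones, and 2.75 and 2.64 for the C1QC clones. Ratios to the reference do not rank the amounts of different transcripts, but 98.4% to 99.5% of tested clones had a lower mean ratio than these. With the ratio turned the other way, 0.511% to 1.53% had a lower one. The spread was also wide: 95.9% to 99% of tested clones had a smaller SD over the cow-days.

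C1QA, the A chain, had levels on day -65 of 2.25 in cow 6934, 3.36 in 6983, 2.05 in 7079, 3.39 in 7186 and 1.45 in 7188. On day -30 they were 0.39, 2.23, 2.87, 3.57 and 1.25 in the same order of cows. The 3 cows of day -14 (6983, 7186 and 7188) had 2.03, 2.35 and 2.49. Both the highest and the lowest C1QA value of the table fell on day -30, in cows 7186 and 6934.

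On day 1, C1QA lay at 2.08 in cow 6934, 2.23 in 6983, 1.71 in 7079, 1.31 in 7186 and 2.51 in 7188. Day 14 gave 1.05, 2.12 and 1.43 in cows 6983, 7079 and 7186, and day 28 gave 2.03, 3.32, 1.97, 2.09 and 1.59 in the 5 cows. The day 49 values were 1.38, 1.51, 2.55 and 0.48 in cows 6934, 7079, 7186 and 7188. Values of all 7 days overlapped. In order, the day means were 2.50 ± 0.85 (SD, n = 5) for day -65, 2.29 ± 0.24 (n = 3) for day -14, 2.20 ± 0.66 (n = 5) for day 28, 2.06 ± 1.27 (n = 5) for day -30, 1.97 ± 0.47 (n = 5) for day 1, 1.53 ± 0.54 (n = 3) for day 14 and 1.48 ± 0.85 (n = 4) for day 49. No neighbours in this order differed by more than the larger of their SDs.

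C1QB, the B chain, was read by a pair of clones. Clone 2, for which the day 49 level stood apart most, had 3.001, 3.70, 2.77, 3.65 and 2.07 on day -65 in cows 6934, 6983, 7079, 7186 and 7188, and 2.30, 3.54, 4.47, 4.28 and 2.94 on day -30. On day -14 it had 3.66, 3.93 and 3.34 in cows 6983, 7186 and 7188. Cow 7188 was lowest on days -65 and -14, and cow 6934 on day -30.

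After calving, C1QB clone 2 read 3.79, 2.88, 2.74, 3.72 and 3.14 on day 1 in the 5 cows. It read 2.26, 4.47 and 3.27 on day 14 in cows 6983, 7079 and 7186, and 3.78, 4.04, 2.79, 2.87 and 2.66 on day 28. On day 49, cows 6934, 7079, 7186 and 7188 had 2.01, 2.19, 2.78 and 1.15. Each of these 4 cows had its lowest value of this clone on day 49. The day 49 mean of 2.03 ± 0.67 (SD, n = 4) lay 1.008 below that of day -65, the next in order, which is 1.5 times the larger SD; the other 6 day means lay between 3.04 and 3.64, with neighbours closer than their SDs.

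C1QB clone 1 repeated the low end but not the gap. Its day 49 values were 2.43, 2.03, 3.71 and 1.24 in cows 6934, 7079, 7186 and 7188, with a mean of 2.35 ± 1.03 (SD, n = 4). Its day means ran from there up to 3.56 ± 0.25 (n = 3) on day -14, and no neighbours in the order differed by more than the larger SD. On day -30 it was widest, with 1.37, 3.13, 4.80, 4.83 and 2.37 in the 5 cows.

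C1QC, the C chain, was also read by a pair of clones. Clone 1 had 3.64, 3.29, 2.03, 3.85 and 3.07 on day -65 in cows 6934, 6983, 7079, 7186 and 7188, and 2.92, 1.88, 3.80, 5.61 and 2.36 on day -30. On day -14 it read 2.14, 3.57 and 2.82 in cows 6983, 7186 and 7188. Cow 7186 was the highest on each prepartum day.

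On day 1, C1QC clone 1 lay at 2.47, 1.298, 2.41, 2.67 and 1.93 in the 5 cows, lower than on day -30 in each of them. Day 14 gave 1.21, 2.78 and 2.03 in cows 6983, 7079 and 7186. On day 28 it lay at 3.87, 2.71, 3.19, 2.89 and 2.75, higher than on day 1 in 5 of 5 cows and with no overlap between those days. This holds for the averaged pairs, not for single arrays. With liver in Cy3, cows 7079 and 7186 had 2.405 and 1.886 on day 28, against 2.51 and 2.78 on day 1. With liver in Cy5, cow 7188 had 1.81 on day 28 against 2.28 on day 1. Day 49 gave 2.71, 1.68, 3.23 and 1.69 in cows 6934, 7079, 7186 and 7188. The day means were highest on day -30, at 3.31 ± 1.47 (SD, n = 5), and lowest on days 1 and 14, at 2.16 ± 0.55 (n = 5) and 2.01 ± 0.79 (n = 3), and no neighbours in the order differed by more than the larger SD.

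C1QC clone 2 had 2.47, 2.25, 2.47, 1.84 and 2.23 on day 1 and 3.11, 3.63, 3.04, 2.38 and 2.41 on day 28, again higher on day 28 in 5 of 5 cows, with 2 day 28 values (cows 7186 and 7188) inside the day 1 range. Its day means ran from 3.11 ± 0.98 (SD, n = 5) on day -30 to 2.14 ± 0.73 (n = 4) on day 49, and no neighbours differed by more than the larger SD. On single arrays with liver in Cy3, cow 7079 had 2.40 on day 28 against 2.72 on day 1, and cow 7186 had 1.52 against 1.64. With liver in Cy5, cow 7188 had 1.72 on day 28 against 2.21 on day 1.

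**Figure D1:**
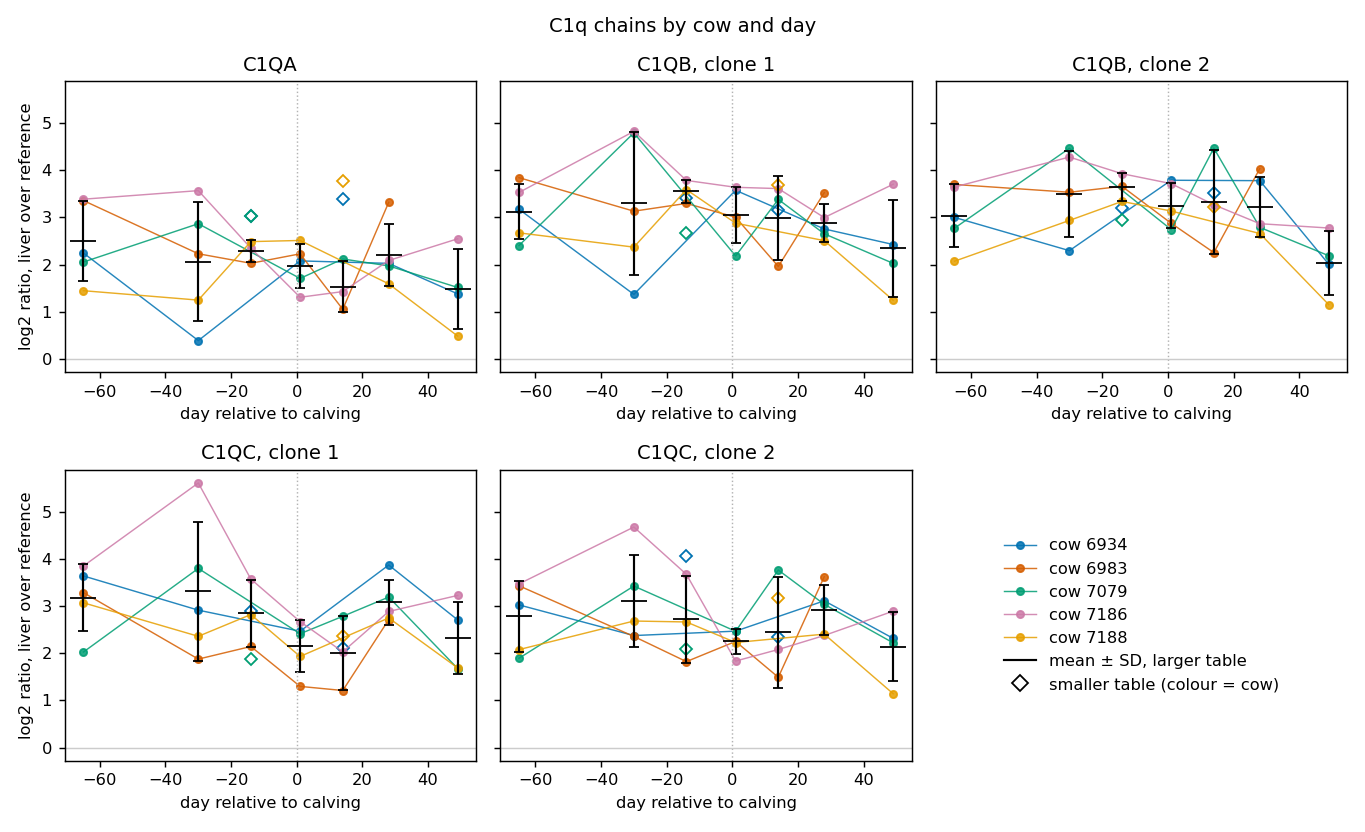
Log2 ratio of liver over reference (y axis) of each C1q clone against the day relative to calving (x axis), with 1 coloured line per cow, black bars for the mean ± SD over cows in the larger table, and open diamonds for the smaller table. All values lie above 0, and most days overlap. Exceptions are days 1 and 28 for C1QC clone 1, and days -14 and 49 for C1QB clone 2, whose values do not overlap.

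Whether C1q changed with time was tested in a fit over all 5280 tested clones, with terms for day and cow. Adjusted p-values below are limma's with Benjamini-Hochberg adjustment over all of these clones. No C1q clone passed 0.05 in any comparison. For the effect of day, the moderated F was 3.20 for C1QC clone 1 (adjusted p = 0.895), 2.69 for C1QB clone 2 (0.934), 1.35 for C1QA (0.996), 1.33 for C1QC clone 2 (0.996) and 0.92 for C1QB clone 1 (0.996). Over all clones 0.0189% passed (1 clone). At an unadjusted p under 0.05, 2 of the 5 C1q clones passed, against 5.23% of all clones.

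Within the prepartum period, day -30 minus day -65 was -0.44 ± 0.44 (SE) for C1QA and between 0.14 and 0.46 for the other 4 clones, each with an SE of 0.39 to 0.47. None was called, as with 0% of all clones, and 524 clones had an unadjusted p under 0.05.

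Across calving, day 1 was set against day -30, which also has 5 cows. The C1QC clones had the lowest estimates, at -1.16 ± 0.41 (SE; 95% interval -1.998 to -0.32; adjusted p = 0.449; lower in 5 of 5 cows) for clone 1 and -0.85 ± 0.44 (adjusted p = 0.627; lower in 4 of 5 cows) for clone 2. C1QA at -0.09 ± 0.44 and the C1QB clones at -0.24 ± 0.47 and -0.25 ± 0.39 were lower in 3 of 5 cows each. In this comparison 0.0189% of clones were called. At an unadjusted p under 0.05, 1 C1q clone (C1QC clone 1) was lower, against 7.12% of all clones. Over all clones the median estimate was -0.056, with 57.1% below 0. From day -14, which has 3 cows, to day 1, the estimates of the fit over all days lay between -0.81 and -0.22 with SEs of 0.47 to 0.55, and 0% of all clones were called. Of the 3 cows with both days, both C1QB clones and C1QC clone 1 were lower on day 1 in 3, C1QC clone 2 in 2 and C1QA in 1.

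From day 1 to day 28 the C1QC clones had the highest estimates, at 0.93 ± 0.41 (SE; adjusted p = 0.608) and 0.66 ± 0.44 (adjusted p = 0.766), both higher in 5 of 5 cows. C1QA was at 0.23 ± 0.44 and the C1QB clones at -0.17 ± 0.47 and -0.03 ± 0.39. None of the C1q clones was called, as with 0% of all clones. At an unadjusted p under 0.05, 1 C1q clone (C1QC clone 1) was higher, against 5.17% of all clones. Over all clones the median estimate was 0.063, with 38.2% below 0. The share of all clones higher in 5 of 5 cows is not given here. Without the non-opposing cow-days, C1QC clones 1 and 2 were at -1.28 and -0.95 from day -30 to day 1, C1QA at -0.04 and the C1QB clones at -0.02 and -0.11. From day 1 to day 28, the C1QC clones were then at 1.05 and 0.75, C1QA at 0.18 and the C1QB clones at -0.39 and -0.16.

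Because the C1QC clones had the estimates farthest from 0 around calving, the change of this chain was set against that of the others within each cow. These comparisons were chosen after the values were seen. Clone 1 of each of C1QB and C1QC was used. From day -30 to day 1, the change of C1QC minus that of C1QA was -1.06 ± 0.81 (SD, n = 5; 95% interval -2.07 to -0.05), below 0 in 5 of 5 cows. An exact sign-flip permutation test gave p = 0.0625, the smallest p that 5 cows allow (2-sided; adjusted p = 0.125 over 4 comparisons). The same difference against C1QB was -0.91 ± 1.46 (SD, n = 5), below 0 in 4 of 5 cows (exact p = 0.25). From day 1 to day 28, the change of C1QC minus that of C1QB was 1.09 ± 0.71 (SD, n = 5; 95% interval 0.22 to 1.97), above 0 in 5 of 5 cows (exact p = 0.0625, adjusted 0.125), and minus that of C1QA it was 0.69 ± 0.93 (SD, n = 5; exact p = 0.25). None of these tests could pass 0.05 with 5 cows. The comparisons of both periods use the same day 1 values with opposite sign, so they are not independent. With the mean of a chain's clones, the 2 differences with all 5 cows on one side were -0.91 (95% interval -1.94 to 0.12) and 0.89 (0.37 to 1.41), again in 5 of 5 cows. The cow nearest 0 was at -0.012 for the first difference and at 0.42 for the second. With each cow-day divided by the spread of its ratios (its slope on the mean profile of all clones), that against C1QA was -1.30 ± 1.68 (SD, n = 5; 95% interval -3.38 to 0.79), below 0 in 4 of 5 cows, and that against C1QB was 1.11 ± 0.64 (0.32 to 1.91), above 0 in 5 of 5. Without cow 7079, whose day 1 is a non-opposing cow-day, they were -1.27 and 1.29, each on that side in 4 of 4 cows.

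From day 28 to day 49, which has 4 cows, all 5 clones had estimates below 0 in the fit over all days. C1QB clone 2 lay at -1.19 ± 0.42 (SE; 95% interval -2.06 to -0.31; adjusted p = 0.581) and was lower in 4 of 4 cows. C1QC clones 1 and 2 lay at -0.93 ± 0.44 and -0.82 ± 0.47, C1QA at -0.63 ± 0.47 and C1QB clone 1 at -0.53 ± 0.50, each lower in 3 of 4 cows. None was called, as with 0% of all clones. At an unadjusted p under 0.05, C1QB clone 2 and C1QC clone 1 were lower, against 4.45% of all clones. Of the 4 cows' day 49 samples, those of cows 6934 and 7188 are non-opposing cow-days. Leaving out the non-opposing cow-days, the 5 estimates lay between -0.94 and -0.35, and fitted on days 28 and 49 alone they lay between -0.99 and -0.38.

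Over the whole period, the mean of the lactation days was set against that of the prepartum days. All 5 estimates lay below 0: -0.58 ± 0.29 (SE) for C1QA, -0.64 ± 0.31 and -0.62 ± 0.26 for C1QB clones 1 and 2, and -0.74 ± 0.27 and -0.46 ± 0.29 for C1QC clones 1 and 2. Every adjusted p was 1, and 0% of all clones were called. At an unadjusted p under 0.05, 3 of 5 C1q clones (both of C1QB and C1QC clone 1) were lower, against 2.48% of all clones. The median estimate over all clones was -0.0072, with 52.2% below 0. The 5 clones share their animals and arrays, and clones of a gene share a transcript, so they are not independent.

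By cow, the difference between the mean lactation level and the mean prepartum level varied. These means cover different days, since only cow 7186 has every prepartum and lactation day in the larger table. Animal and days present therefore cannot be told apart here. Cow 7186 had the lowest values for 4 of the 5 clones, with -1.08 for C1QA, -0.61 and -0.98 for C1QB, and -1.63 and -1.49 for C1QC. Cow 7188 had -0.69, -1.003, -0.88, -0.53 and -0.70 in the same order. Cow 6983 had -0.35, -0.68, -0.49, -0.47 and 0.02, and cow 7079 had -0.59, -0.91, -0.47, -0.36 and 0.35. Cow 6934 went the other way, with 0.39, 0.32, 0.25, 0.01 and 0.01. So 4 of 5 clones were lower in 4 of 5 cows, against 17.8% of all clones lower in at least 4, and C1QC clone 2 was lower in 2 of 5 cows.

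The difference was nearer to 0, or reversed, without the 5 non-opposing cow-days. Leaving them out, with 1 cow remaining for day 14 and 2 for day 49, the estimates were -0.15 ± 0.42 (SE) for C1QA, -0.35 ± 0.43 and -0.08 ± 0.33 for C1QB, and -0.36 ± 0.39 and 0.22 ± 0.39 for C1QC. The mean difference of the 5 clones by cow was then 0.67 in cow 6934, 0.53 in cow 6983, -0.40 in cow 7079, -1.04 in cow 7186 and -0.14 in cow 7188, below 0 in 3 of 5 cows. Without cow 7186, and with all other cow-days, the 5 estimates lay between -0.72 and -0.11.

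**Figure D2:**
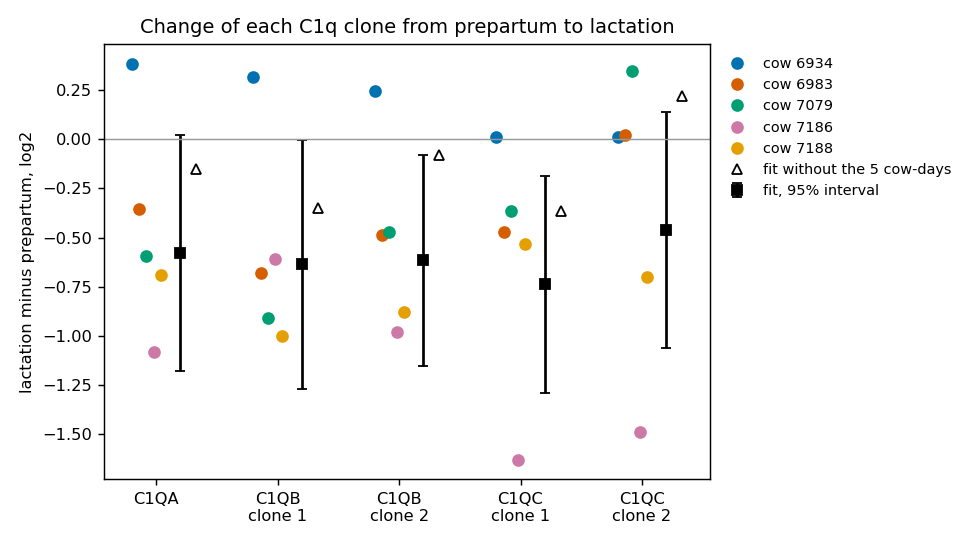
Lactation mean minus prepartum mean on the log2 scale (y axis) for each C1q clone (x axis), with 1 coloured point per cow, a black square and bar for the fitted estimate and its 95% interval, and an open triangle for the fit without the 5 non-opposing cow-days. All 5 squares lie below 0, cow 6934 lies above 0 for all clones, and each triangle lies nearer to 0 than its square or, for C1QC clone 2, above it.

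The chains were also compared with each other in this difference, with 1 value per cow and clone 1 of C1QB and C1QC. The change of C1QA minus that of C1QB was 0.11 ± 0.34 (SD, n = 5; 95% interval -0.32 to 0.54; exact sign-flip permutation p = 0.562). C1QA minus C1QC was 0.13 ± 0.33 (95% interval -0.28 to 0.55; exact p = 0.5), and C1QB minus C1QC was 0.02 ± 0.65 (95% interval -0.79 to 0.83; exact p = 0.938). Adjusted over the 3 pairs, these p-values were 0.844, 0.844 and 0.938. The widest interval, that of C1QB and C1QC, leaves room for a difference of 0.83 between chains.

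How well a single value is known can be read from the arrays of a pair. The median gap between the value with liver in Cy5 and that with liver in Cy3 was 0.71 for C1QA, 0.89 and 0.44 for C1QB clones 1 and 2, and 0.51 and 0.57 for C1QC clones 1 and 2, and over all tested clones the median of this gap was 0.64. A gap over 1 was found in 13 of 30 cow-days for C1QA and C1QB clone 1, in 8 for C1QB clone 2 and C1QC clone 1, and in 11 for C1QC clone 2. The widest was in cow 7079 on day 28, where C1QB clone 1 read 4.58 in Cy5 and 0.72 in Cy3. Next came cow 7188 on day -30, where C1QB clone 1 read 4.19 in Cy5 and 0.55 in Cy3. Then came cow 7188 on day 28, where C1QA read -0.19 in Cy5 and 3.38 in Cy3. On day 28, C1QA and C1QB clone 1 had a gap over 1 in every cow, and the other clones in some. For C1QA on that day, Cy5 and Cy3 read 3.52 and 0.53 in cow 6934, and 2.44 and 4.2 in cow 6983. They read 3.27 and 0.67 in cow 7079, and 3.78 and 0.40 in cow 7186. No day 28 sample is among the non-opposing cow-days, so leaving those out does not touch these gaps. The highest and the lowest day mean of a clone lay 0.96 to 1.61 apart. A day mean averages both dyes over several cows, so it is not directly comparable with a gap between single arrays. The 2 spots of a clone on the same arrays lay closer, with median differences of 0.12 to 0.34 and correlations of 0.82 to 0.98 over 30 cow-days.

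**Figure D3:**
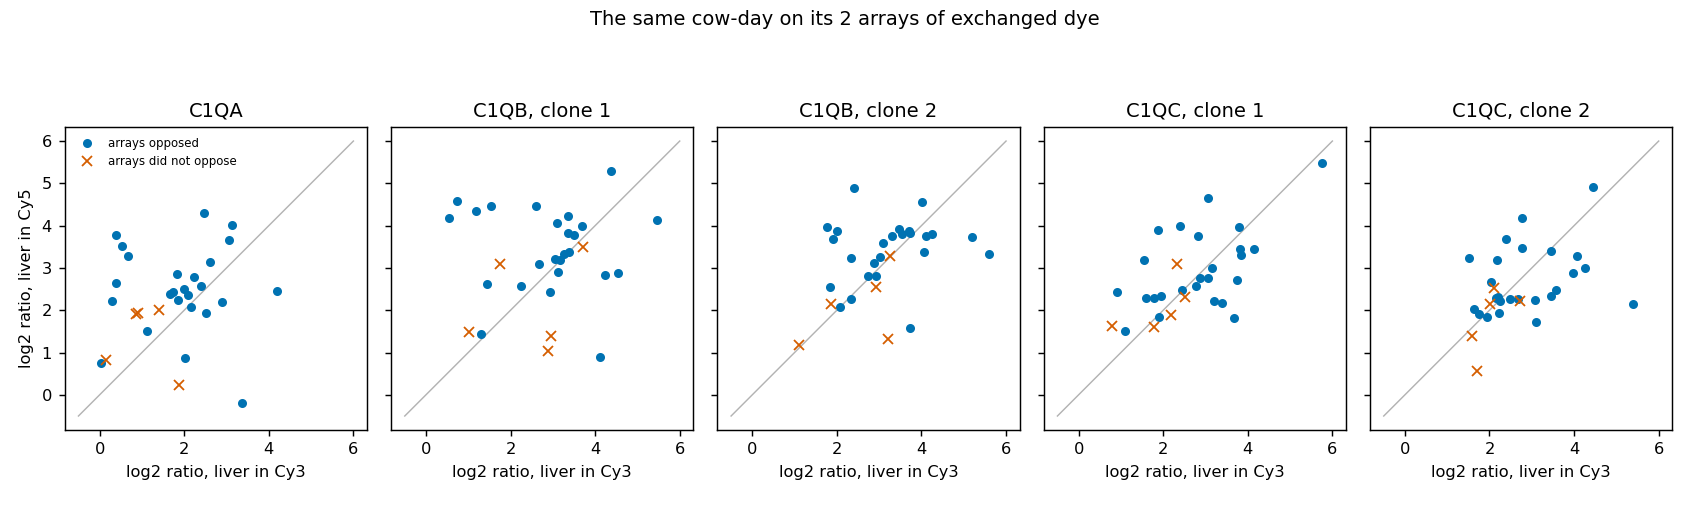
Log2 ratio of each C1q clone on the array with liver in Cy5 (y axis) against that with liver in Cy3 (x axis), both turned to liver over reference, with 1 point per cow-day and a grey line of equality. Crosses mark the 5 non-opposing cow-days. Gaps of more than 1 from the line occur in 8 to 13 of the 30 cow-days of each clone.

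The smaller table, of another array print and normalized separately, served as a check on cow 6934 (days -14 and 14), cow 7079 (day -14) and cow 7188 (day 14). All 20 of its C1q values lay above 0, and 10 of 20 fell inside the range of the larger table on that day. C1QA read higher there throughout, at 3.04 and 3.02 on day -14 in cows 6934 and 7079 and at 3.39 and 3.77 on day 14 in cows 6934 and 7188. In the larger table, C1QA in the other cows lay between 2.03 and 2.49 on day -14 and between 1.05 and 2.12 on day 14. These are different cows on a different print, and which of these the gap comes from cannot be told apart. With both tables joined, which gives days -14 and 14 all 5 cows, the lactation against prepartum estimates lay between -0.60 and -0.36.

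The clones varied together over the cow-days, and so did the spread of all clones on the arrays. After subtracting each cow's mean, clones of the same chain correlated over the 30 cow-days at Pearson r = 0.83 for C1QB and 0.84 for C1QC, and clones of different chains at 0.55 to 0.79. These points share arrays, and cow-days differ in the spread of all log2 ratios. That spread was measured as the slope of a cow-day on the mean profile of all clones. It ran from 0.59 in cow 6934 on day -30 to 1.36 in cow 7186 on day -30, the cow-days with the lowest C1QA value and the highest C1QC value. The mean of the 5 C1q clones correlated with the slope at r = 0.84 over 30 cow-days. The mean profile includes the C1q clones, and clones far above 0 in it tend to rise with the slope by its definition. Part of this r is therefore built in, and the r of other clones with high ratios is not given here. When each cow-day was divided by its slope, a step chosen after seeing the data, clones of the same chain still correlated at 0.57 and 0.73, and clones of different chains at 0.02 to 0.42. The mean slope was 1.07 on day -65, 1.02 on day -30, 1.04 on day -14, 1.02 on day 1, 0.94 on day 14, 1.00 on day 28 and 0.88 on day 49. After this division, the lactation against prepartum estimates of the 5 clones lay between -0.48 and -0.26. Apart from this division, the part of the spread in the differences between days was not tested.

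**Figure D4:**
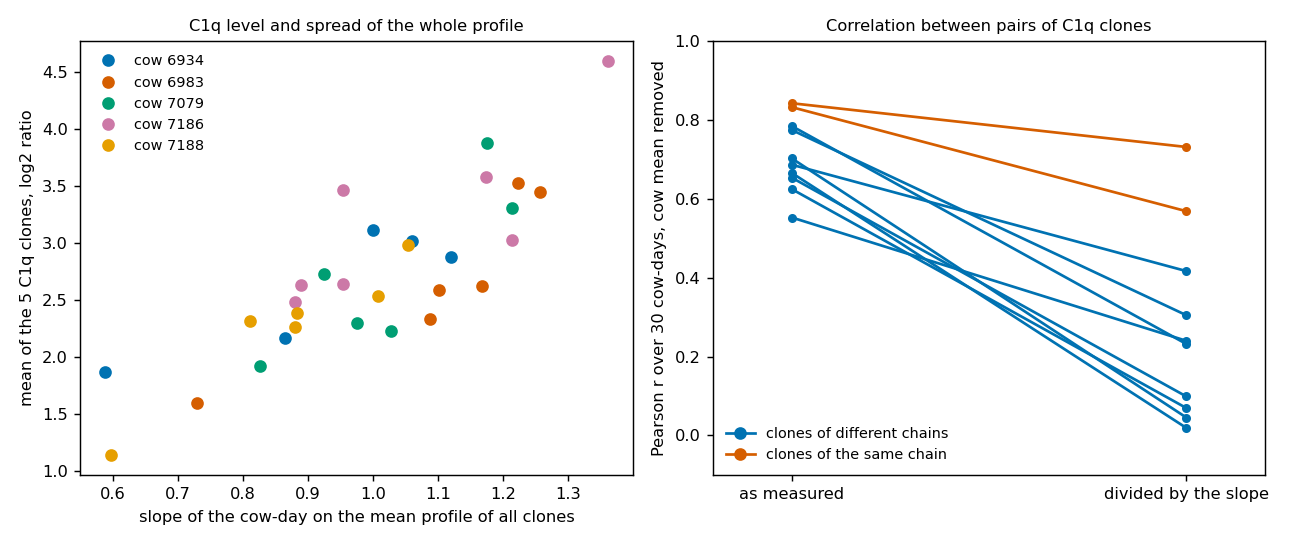
Left, the mean of the 5 C1q clones (y axis, log2 ratio) against the slope of the cow-day on the mean profile of all clones (x axis), with 1 point per cow-day coloured by cow. Right, Pearson r between pairs of C1q clones over 30 cow-days (y axis) as measured and after division by the slope (x axis). The C1q mean is higher where the slope is higher, and after the division the same-chain pairs lie above all pairs of different chains.

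The genes with the pattern most like that of C1q were found by Pearson r over the 30 cow-days after subtracting each cow's mean, among 4874 clones of other single genes measured in every cow-day. For the mean of the 3 chains they were CD14, the lipopolysaccharide co-receptor of macrophages, at r = 0.92, the hydrolase BPHL at 0.91, the peroxisomal thiolase ACAA1 at 0.90, complement C4A at 0.90, the phosphatase subunit PPP6R2 at 0.89, TMT1B at 0.88, the endoplasmic reticulum isomerase PPIB at 0.88 and PHYHD1, ECM1 and SLC43A1 at 0.87 each. Over all candidates the median r was 0.013, and 42 had an r over 0.8.

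By chain, C1QA was closest to TST (0.93), a mitochondrial sulfurtransferase, CD14 (0.88), ACAA1 (0.88), SHQ1 (0.88) and ECI1 (0.88), an enzyme of fatty acid oxidation. C1QB clone 1 was closest to the carnitine carrier SLC25A20 (0.92), the retinol carrier RBP4 (0.90), the C1 protease C1R (0.90), LOC613570 (0.88) and GCHFR (0.87). C1QC clone 1 was closest to the creatine synthesis enzyme GAMT (0.90), the lysosomal membrane protein LAMP1 (0.87), PPIB (0.87), PPP6R2 (0.86) and the kinase EIF2AK4 (0.85). No gene was among the 5 of more than 1 chain. Divided by the slope, GAMT lay at 0.86 with C1QC clone 1, but LAMP1 at 0.60, PPIB at 0.44 and PPP6R2 and EIF2AK4 at 0.495 each; the 5 genes of C1QA then lay at 0.75 to 0.86 and those of C1QB clone 1 at 0.59 to 0.76. For the mean of the chains, divided by the slope, only 2 of the 10 genes closest to the mean of the chains stayed in the first 10, PPIB at 0.80 and PPP6R2 at 0.79, where they stood with RPL18 (0.82), the lysosomal proteins PSAP (0.82) and LAMP1 (0.80), and others. CD14 and C4A then had an r of 0.73 each, and 4 clones an r over 0.8.

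Partners of C1q in the classical pathway were on the array for 6 of 13 listed genes, and none of the 6 was called in lactation against prepartum. All 6 had estimates below 0, with a median of -0.61, but without the non-opposing cow-days the median was -0.13 and 5 of 6 were below 0. The proteases that sit on C1q, C1R and C1S, lay at -1.01 ± 0.36 (SE) and -0.57 ± 0.26. The substrates C4A and C2 lay at -0.94 ± 0.26 and -0.64 ± 0.28, each lower in 4 of 5 cows as were C1R and C1S. The C1 inhibitor SERPING1 lay at -0.47 ± 0.19 and CD59, which blocks the membrane attack complex, at -0.32 ± 0.20, each lower in 3 of 5 cows. Without the non-opposing cow-days, C1R was at -0.45 ± 0.48 (SE), C4A at -0.62 ± 0.37, C1S at -0.12 ± 0.35, C2 at 0.0066 ± 0.35, SERPING1 at -0.11 ± 0.27 and CD59 at -0.14 ± 0.30. Over the cow-days, with the cow mean removed, C1S, C2, C4A, SERPING1 and C1R correlated with the mean of the C1q clones at 0.78 to 0.87, and CD59 at 0.34 (n = 30 cow-days at most). After division by the slope these values were 0.25 to 0.65 for the first 5 and 0.19 for CD59.

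Receptors and ligands of C1q lay on both sides of 0. Of 12 listed genes 4 were on the array, with a median estimate of -0.064 (-0.18 without the non-opposing cow-days), and none was called. Calreticulin (CALR), which binds the collagen-like stalk, lay at -0.17 ± 0.10 (SE), CD93 at -0.18 ± 0.14, the scavenger receptor SCARF1 at 0.36 ± 0.24 and decorin (DCN), a matrix proteoglycan that binds C1q, at 0.04 ± 0.22. Of 24 other complement genes 3 were on the array: properdin (CFP) at -0.43 ± 0.21, the integrin chain ITGB2 of complement receptors at -0.30 ± 0.12 and factor D (CFD) at 0.01 ± 0.08. Of 19 other genes with a C1q domain, C1QTNF1, C1QTNF5 and EMILIN1 were on the array, with estimates between -0.07 and 0.09, and none of these 6 was called.

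Markers of Kupffer cells and macrophages, the cells known to make C1q, lay mostly below 0 in the same comparison. Of 27 listed markers 18 were on the array, 14 had estimates below 0 in lactation against prepartum, and none was called. Over all clones 52.2% of estimates were below 0. Their median estimate was -0.17. Without the non-opposing cow-days, 9 of the 17 then tested were below 0, with a median of -0.041. Those with the smallest p-values were the phosphatidylserine receptor TIMD4 at -0.47 ± 0.19 (SE), CD14 at -0.45 ± 0.18, the complement receptor VSIG4 at -0.41 ± 0.19 and the lysosomal protease LGMN at -0.38 ± 0.17. In the same fit of all cow-days, FCGR3A at 0.24 ± 0.17, CYBB at 0.15 ± 0.18, CTSS at 0.08 ± 0.19 and FCGR1A at 0.03 ± 0.24 lay above 0. The mean marker level ran over cow-days from 0.67 to 1.67 prepartum and from 0.45 to 1.42 in lactation. The defining receptor CD163 lay at 0.04 over the cow-days, FCGR1A at 0.08 and NPC2 at -0.10, near the reference. By cow, the mean change of the 5 C1q clones and that of the markers were 0.20 and 0.24 in cow 6934, -0.39 and -0.16 in cow 6983, -0.40 and -0.20 in cow 7079, -1.16 and -0.29 in cow 7186, and -0.76 and -0.28 in cow 7188. Without the non-opposing cow-days, both changes were above 0 in cows 6934 and 6983 and below 0 in the other 3 cows. The part of macrophage content in the C1q difference was not tested.

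Markers of other cells gave these values beside it, with none called. The value without the non-opposing cow-days is in parentheses. Of 15 hepatocyte markers 6 were on the array, 5 with estimates below 0 and a median of -0.35 (-0.085). Of 12 stellate cell and fibroblast markers 7 were on the array, 0 below 0, with a median of 0.27 (-0.32, with 7 below 0), and their mean level per cow-day lay between -3.08 and -1.21 over both periods. The 3 lymphocyte markers on the array, of 16 listed, had a median of 0.25 (0.30). The only neutrophil marker, S100A12, of 8 listed, was at 0.37 (0.76). The median was 0.037 (0.09) for 5 of 11 endothelial markers and -0.026 (0.041) for 4 of 7 bile duct markers. Each marker was read by 1 clone, the most completely measured. A second clone had the other sign for DES (-0.15 against 0.16), PECAM1 (-0.33 against 0.037) and SPP1 (0.52 against -0.066). For COL1A2, VIM and KDR the second clone had the same sign. No erythroid marker of the 6 listed was on the array. The part of these cells in the C1q values was not tested.

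**Figure D5:**
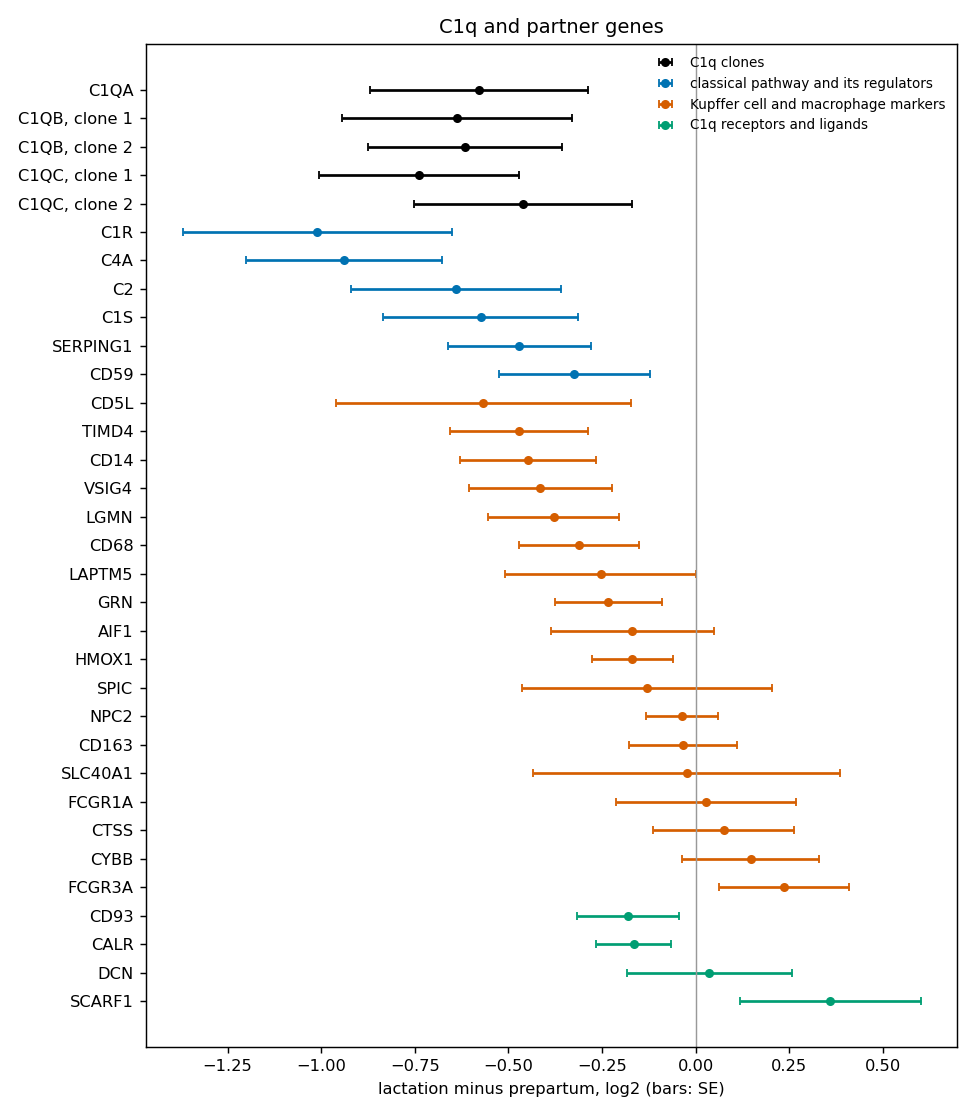
Estimated lactation minus prepartum difference on the log2 scale (x axis) with its SE (bars) for the C1q clones, the genes of the classical pathway and its regulators, the Kupffer cell and macrophage markers and the C1q receptors and ligands on the array (y axis, coloured by list). The C1q clones and all 6 classical pathway genes lie below 0, and the macrophage markers lie on both sides of it; no gene passed the adjusted threshold.

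In the ARS-UCD2.0 gene order the chains are neighbours: C1QB, an unnamed protein-coding gene, C1QC and C1QA follow each other, with the receptor kinase genes EPHB2 and EPHA8 on either side. No other gene of this stretch was on the array, so whether the neighbourhood moved with C1q was not measured here.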

How the data were processed

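Per the labels, images came from a Scanarray 4000 scanner and were quantified with GenePix 4.0. How background, flags and scaling were handled is not given in the sources used here. The deposited values are log2 ratios. The base was read from the values: of 10485 values, 39.6% equal the log2 of a whole number, against 1.85% of the grid. Arrays with liver in Cy3 had their sign turned, arrays were centred on their median, and the 2 spots of a clone and then the exchanged pair were averaged. Fits used limma 3.58.1 (R 4.3.3) with day and cow as fixed terms and 19 residual degrees of freedom, on 5280 clones with at least 3 cows on each day. The cow is the pairing, since the same animals were sampled on each day. The fit was tested on simulated data, with noise drawn independently for each clone and added changes larger than the C1q estimates of the main fit. That test does not show how well changes of the size of the C1q estimates are found. Symbols were updated for 5591 clones, and 95 clones naming several genes were never named. Another 5030 rows without a listed clone were left out. All clones of the chains, all pathway genes on the array, the 5 or 10 most alike genes and up to 4 markers per list, by p-value, were named. Named beyond this, for their level, were all hepatocyte markers on the array and the macrophage markers CD163, FCGR1A and NPC2. The macrophage markers with estimates above 0 were named too. The members and lists were chosen with earlier results of these data known. The number of arrays limits the precision.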

Additional observations from a re-analysis of the deposited data

Results flagged for a closer look

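C1QA on day 28 stood out because 1 cow lay far from the others: cow 6983 was at 3.322, and the next highest of the 5 cows was at 2.088. No other of the 30 groups of 4 or 5 values examined (each clone on each day with at least 4 cows, and its lactation minus prepartum difference by cow) held such a value, and chance alone marks about 1 in 20 groups. The exchanged arrays behind the value of cow 6983 read 4.2 with liver in Cy3 and 2.44 with liver in Cy5.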

How the results depend on the processing

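In the 35 tests of C1q clones, 659 of 695 alternative values kept their direction and their side of the threshold, 32 changed sign, 4 passed the threshold and 0 lost a call. The F values of the day effect, 19 for each clone, have no direction to change. No C1q clone was called in the main fit, so none could lose a call. Array weights, whose estimate stopped before it converged (weights 0.204 to 10.3), changed most. With them 1026 clones were called for the day effect, 82 for day -30 against -65, 84 for day 1 against -30, 51 for day 1 against -14, 81 for day 28 against 1, 207 for day 49 against 28 and 26 for lactation against prepartum. C1QB clone 2 (F 8.71, adjusted p 0.00513) and C1QC clone 1 (F 6.42, adjusted p 0.0123) then passed for the day effect, and C1QB clone 2 for day 49 against 28 (-1.37, adjusted p 0.0192).

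The 1 clone called for the day effect was lost (0 called) without the replicate block of the cow, without centring, with scaling to the median absolute deviation (MAD), quantile normalization, Cy5 arrays only, trend and robust moderation, division by the slope, without the cow-days that did not oppose, and in each fit without 1 cow (0 to 0). Without the replicate block the lactation estimates of C1q lay between -0.64 and -0.37. For day 1 against -30, 10 clones passed with MAD scaling, C1QC clone 1 among them (-2.39 MAD units, adjusted p 0.0356), and 0 with quantile normalization, Cy5 only, the 2 days alone, or division by the slope, and 0 to 1 without 1 cow (0 without cow 7188). With Cy3 only, 1 passed for day 1 against -14, 6 for day 28 against 1 and 2 for day 49 against 28, and 2 passed for the last with division by the slope. Without 1 cow, 0 to 1 passed for day 28 against 1 and for day 49 against 28.

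Most signs that changed were of estimates near 0, the exceptions being C1QC clone 2 for day 1 against -14 (-0.56) and for lactation against prepartum (-0.46). For day -30 against -65, C1QB clone 1 was at -0.0022 (quantile), -0.073 (weights) and -0.38 to 0.67 without 1 cow, and C1QC clone 1 at -0.085 (Cy5 only), -0.22 (weights) and -0.27 to 0.52 without 1 cow. For day 1 against -30, C1QA was at 0.032 (no centring), 0.089 (quantile), 0.17 (Cy3 only), 0.068 (weights), 0.089 (slope) and -0.54 to 0.45 without 1 cow; C1QB clone 1 at 0.12 (Cy3 only), 0.065 (weights) and -0.85 to 0.35 without 1 cow; and C1QB clone 2 at -0.69 to 0.12 without 1 cow. For day 1 against -14, C1QA was at 0.13 (Cy3 only) and 0.10 (weights), and C1QC clone 2 at 0.087 (weights). For day 28 against 1, C1QA was at -0.081 (quantile), C1QB clone 1 at 0.22 (MAD units) and 0.37 (Cy5 only), and C1QB clone 2 at 0.018 (no centring), 0.55 (MAD units), 0.20 (Cy5 only), 0.035 (weights) and -0.32 to 0.18 without 1 cow. In lactation against prepartum, C1QC clone 2 was at 0.22 without the cow-days that did not oppose. The change of C1QB minus that of C1QC was -0.066 (mean of clones), -0.0060 (quantile), -0.015 (Cy5 only), -0.12 (without those cow-days) and -0.23 to 0.16 without 1 cow. The causes were not tested. Division by the slope and the mean of clones were chosen after seeing the data.

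All 70 day levels from 1 spot alone lay within the SD over cows. Of the 10 genes most like C1q, 6 remained without subtracting the cow mean, 6 by Spearman rho and 7 without the cow-days that did not oppose. The classical pathway median for lactation against prepartum was -0.13 without those cow-days, -0.34 with Cy3 only and -0.35 with division by the slope, against -0.61. Intervals of about 0.6 either side are the limit for the lactation difference of a C1q clone.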
